A study of Mus musculus with 9 samples.

Results

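The STAT5 pathway was followed through 10 genes in mouse bone marrow cells that carried an NCOA2 fusion or an empty vector. The genes were Stat5a, Stat5b, Jak2, Osm, Cish, Socs1, Socs2, Socs3, Pim1 and Pim2, taken by symbol from a table of 17266 genes, and all 10 had a row and passed the filter on low values. Bulk RNA was sequenced from 9 libraries, 3 with ETV6-NCOA2, 3 with KAT6A-NCOA2 and 3 with the vector alone, after 5 days of culture. ETV6-NCOA2 cells had received MigR1-ETV6-NCOA2-IRES-GFP, KAT6A-NCOA2 cells MigR1-KAT6A-NCOA2-IRES-GFP, and Empty vector cells MigR1-IRES-GFP, each by retrovirus. All 3 groups shared their other features. Marrow came from female C57B/6 mice of 6 weeks, lineage-negative cells were taken with magnetic beads, the medium was RPMI with the cytokines SCF, IL-3 and IL-6, and GFP+ cells were sorted. Each transgene was therefore driven by a retroviral vector and not by the fusion's own promoter. No label states whether the libraries of a group are different mice or different cultures, and p-values here therefore cover the spread of these libraries alone, part or all of which may be technical.

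STAT5A and STAT5B are transcription factors that cytokine receptors switch on through JAK kinases. IL-3 acts through JAK2, which sits on the shared beta chain of the receptor, and phosphorylated STAT5 then enters the nucleus and binds the palindromic sequence TTCNNNGAA. Among its best known targets are genes that close the loop: CISH and the SOCS proteins bind receptors or kinases and damp the signal. The PIM kinases, which promote survival and growth, and oncostatin M, a cytokine of the IL-6 family encoded by Osm, are induced through STAT5 as well. In marrow this pathway is known for supporting mast cells, basophils, eosinophils, red cell precursors and immature myeloid cells.

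The STAT5 motif itself stands at the RefSeq start of Cish. These sequences are shown because Cish is the textbook STAT5 feedback gene and Socs3 was the other pathway gene with a match. Capitals mark TTCNNNGAA, the sequences are from RefSeq on GRCm38.p6, and each line runs 5′ to 3′ along the strand of the gene.
Cish, chr9:107296654-107296683, plus strand: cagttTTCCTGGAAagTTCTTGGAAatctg
Socs3, chr11:117969501-117969530, minus strand: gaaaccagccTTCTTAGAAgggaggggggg
In Cish the first site begins at the first base of the RefSeq gene, the other begins at base 12, and 2 bases separate them. Both lie inside the GENCODE gene of Cish, which starts farther upstream, at 107296026. In Socs3 the site begins 154 bases before the start of the RefSeq transcript. It lies inside the GENCODE gene, which on this strand starts farther upstream, at 117970047. Promoter windows, from 250 bases before a start to 50 after it, were at hand for 8 of the 10 genes, and Osm and Socs2 were the others. TTCNNNGAA reads the same on both strands and was found in 2 of 11 windows of the 8 genes, against 8.3% of 32851 windows of all genes. A window with at least 2 matches, as in Cish, made up 0.457% of all windows. A match is a run of letters only, and binding was not measured.

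The comparison of KAT6A-NCOA2 with Empty vector asked which genes differ in cells with this fusion. Osm, Socs1, Pim2, Stat5a, Stat5b and Cish fell with KAT6A-NCOA2 and Socs3 rose, while Jak2, Pim1 and Socs2 did not pass the test (limma, Benjamini-Hochberg adjusted p below 0.05 over 13750 genes). The 6 falls and 1 rise among 10 genes stand beside 13.7% of all tested genes lower, 11.6% higher and 25.4% called in either direction. The libraries of the groups did not overlap for the same 7 genes, as they did not for 21.7% of all tested genes lower, 21.2% higher and 42.9% in either direction. The median log2 fold change of the 10 genes was -0.40, beside 0.02 over all genes tested. In these bulk libraries, fewer cells of a type that holds a transcript and less of that transcript per cell cannot be told apart.

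**Figure D1:**
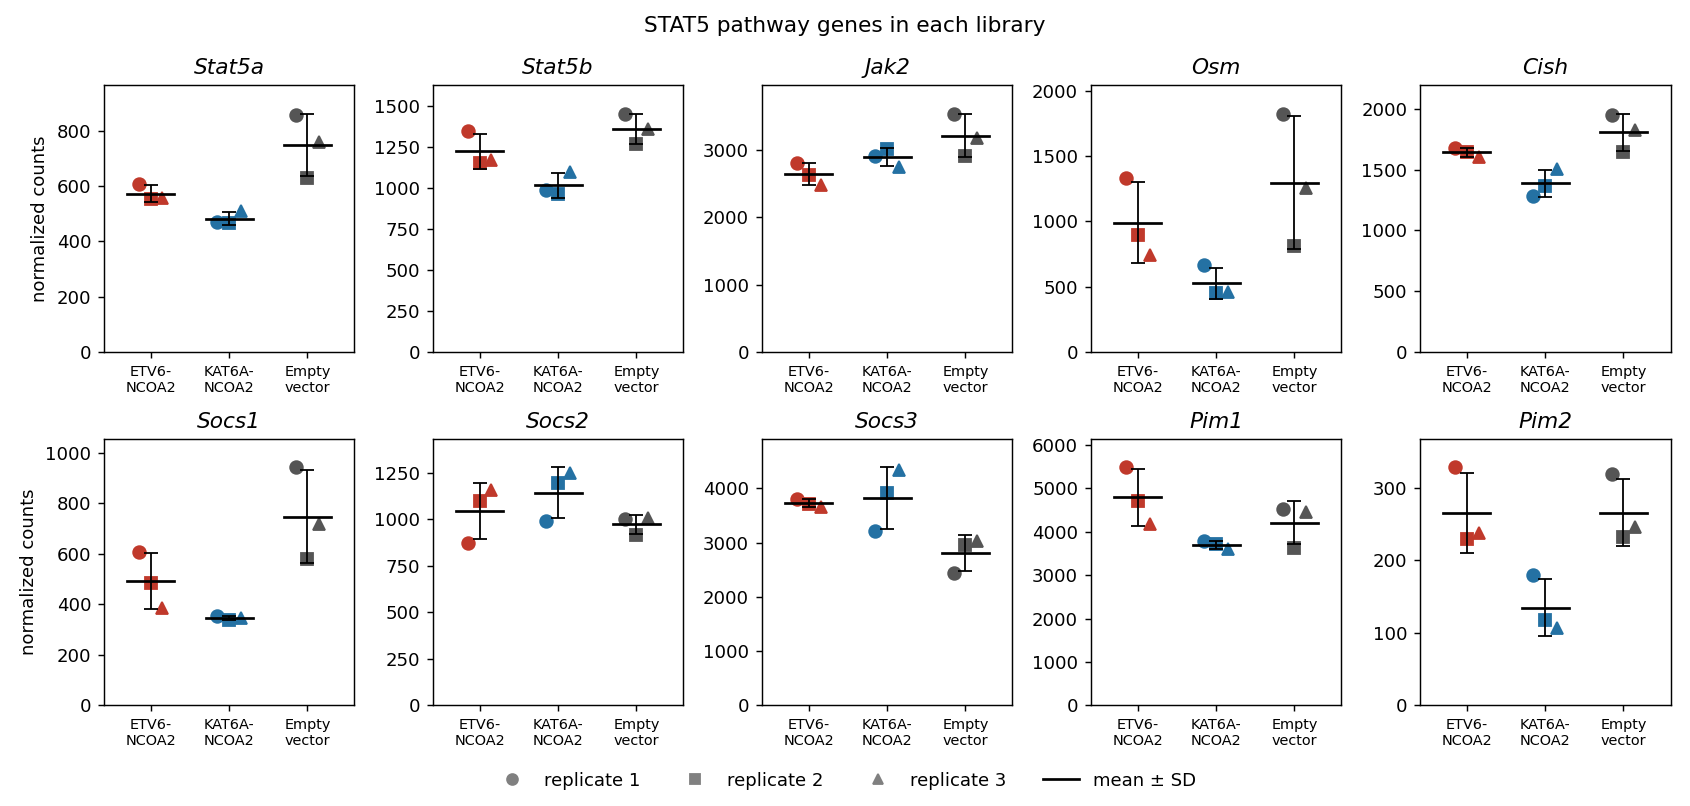
Normalized counts (y axis, from 0) of the 10 STAT5 pathway genes in each library, by group on the x axis. Symbols are the replicates, and bars give the mean ± SD of 3 libraries. Osm, Socs1, Pim2, Stat5a, Stat5b and Cish have all 3 KAT6A-NCOA2 libraries below all Empty vector libraries, and Socs3 has them above.

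Stat5a (ENSMUSG00000004043.14, chromosome 11, 100859351 to 100885169 on GRCm38) had 470, 466 and 511 normalized counts in KAT6A-NCOA2 libraries and 856, 630 and 760 in Empty vector libraries. All 3 KAT6A-NCOA2 libraries lay below every Empty vector library, and the drop was 1.54-fold (log2 fold change -0.62 ± 0.11 SE, adjusted p = 0.00268). Its neighbour Stat5b (chromosome 11, 100780731 to 100850724) encodes the closely related protein. Stat5b had 987, 961 and 1101 normalized counts with KAT6A-NCOA2 and 1455, 1268 and 1360 with Empty vector, again without overlap, and fell 1.34-fold (log2 fold change -0.42 ± 0.09 SE, adjusted p = 0.00618). How reads that match both genes were assigned is not given in the sources used here, so the split of reads between Stat5a and Stat5b is uncertain. Stat5a also shares 72 bases at its end with Stat3, which lies on the opposite strand.

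Jak2 (chromosome 19, 29251828 to 29313080), the kinase that phosphorylates STAT5 on the IL-3 receptor, had 2914, 3017 and 2754 normalized counts in KAT6A-NCOA2 libraries and 3541, 2906 and 3182 in Empty vector libraries. These ranges overlap, the difference did not pass the test (adjusted p = 0.227), and its 95% interval ran from -0.33 to 0.04 on the log2 scale.

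Osm (ENSMUSG00000058755.3, chromosome 11, 4236420 to 4241026) showed the largest fold change of the 10 genes in this comparison. It had 663, 450 and 459 normalized counts in KAT6A-NCOA2 libraries and 1826, 808 and 1255 in Empty vector libraries. Every KAT6A-NCOA2 library was below the lowest Empty vector library, but the Empty vector libraries differed among themselves by 2.26-fold. Osm fell 2.38-fold (log2 fold change -1.25 ± 0.29 SE, 95% interval -1.89 to -0.61, adjusted p = 0.0112). Without KAT6A-NCOA2 replicate 2 the log2 fold change was -1.15 and the adjusted p 0.0505.

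Of the 4 feedback inhibitors, Socs1 and Cish fell, Socs3 rose and Socs2 did not pass. Socs1 (chromosome 16, 10782240 to 10785536), whose protein inhibits JAK kinases directly, had 353, 336 and 347 normalized counts with KAT6A-NCOA2 and 942, 579 and 718 with Empty vector. The KAT6A-NCOA2 libraries lay close together, with a coefficient of variation of 2.49%, and all below the Empty vector libraries (2.11-fold lower, log2 fold change -1.08 ± 0.18 SE, adjusted p = 0.0026). Cish (ENSMUSG00000032578.7, chromosome 9, 107296026 to 107302784), whose protein binds activated cytokine receptors, had a smaller fold change. It had 1284, 1368 and 1507 normalized counts with KAT6A-NCOA2 and 1949, 1640 and 1826 with Empty vector, with no overlap, and was 1.30-fold lower (log2 fold change -0.38 ± 0.08 SE, adjusted p = 0.00766). Cish overlaps Gm17040 on the opposite strand, a transcribed pseudogene that had at most 6.69 normalized counts in any library, and Gm17041, an antisense gene that was not analysed here.

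Socs3 (chromosome 11, 117966079 to 117970047), best known as the inhibitor of signalling through gp130, had 3206, 3912 and 4337 normalized counts in KAT6A-NCOA2 libraries and 2437, 2963 and 3034 in Empty vector libraries. All KAT6A-NCOA2 libraries were above all Empty vector libraries, and the rise was 1.35-fold (log2 fold change 0.44 ± 0.11 SE, adjusted p = 0.0188). This call was lost without KAT6A-NCOA2 replicate 2 (adjusted p = 0.0717), without KAT6A-NCOA2 replicate 3 (0.0798) and without Empty vector replicate 1 (0.0771), where log2 fold changes were 0.41, 0.34 and 0.34. Socs2 (chromosome 10, 95385362 to 95417180), an inhibitor of growth hormone signalling, had 989, 1192 and 1248 normalized counts with KAT6A-NCOA2 and 1000, 913 and 1006 with Empty vector. One KAT6A-NCOA2 library lay inside the Empty vector range, and the interval of the log2 difference ran from -0.03 to 0.49 (adjusted p = 0.18).

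The ratio of Socs3 to Socs1 within a library does not depend on how libraries were scaled, and was chosen after the values were seen. Normalized counts of Socs3 were 9.07, 11.6 and 12.5 times those of Socs1 in KAT6A-NCOA2 libraries and between 6.29 and 9.504 times in ETV6-NCOA2 libraries. In Empty vector libraries the ratio was 2.59, 5.12 and 4.22. The ratios of each fusion lay above those of the vector without overlap, and those of the fusions overlapped each other.

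Of the PIM kinase genes, Pim2 fell and Pim1 did not pass. Pim2 (ENSMUSG00000031155.16, chromosome X, 7878262 to 7883432) had 179, 118 and 106 normalized counts in KAT6A-NCOA2 libraries and 318, 232 and 246 in Empty vector libraries. It was 2.00-fold lower without overlap (95% interval of the log2 fold change -1.47 to -0.54, adjusted p = 0.00724). Pim2 was the pathway gene with the fewest reads, 91 in KAT6A-NCOA2 replicate 3, for which counting error alone gives an exact 95% Poisson interval of 73.3 to 112 reads. Pim1 (chromosome 17, 29490753 to 29496112) had 3785, 3710 and 3609 normalized counts with KAT6A-NCOA2 and 4524, 3638 and 4465 with Empty vector. One Empty vector library lay among the KAT6A-NCOA2 libraries and Pim1 did not pass the test (interval -0.42 to 0.06 on the log2 scale, adjusted p = 0.26). Gm26885, antisense to Pim1, had between 51.4 and 86.1 normalized counts.

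**Figure D2:**
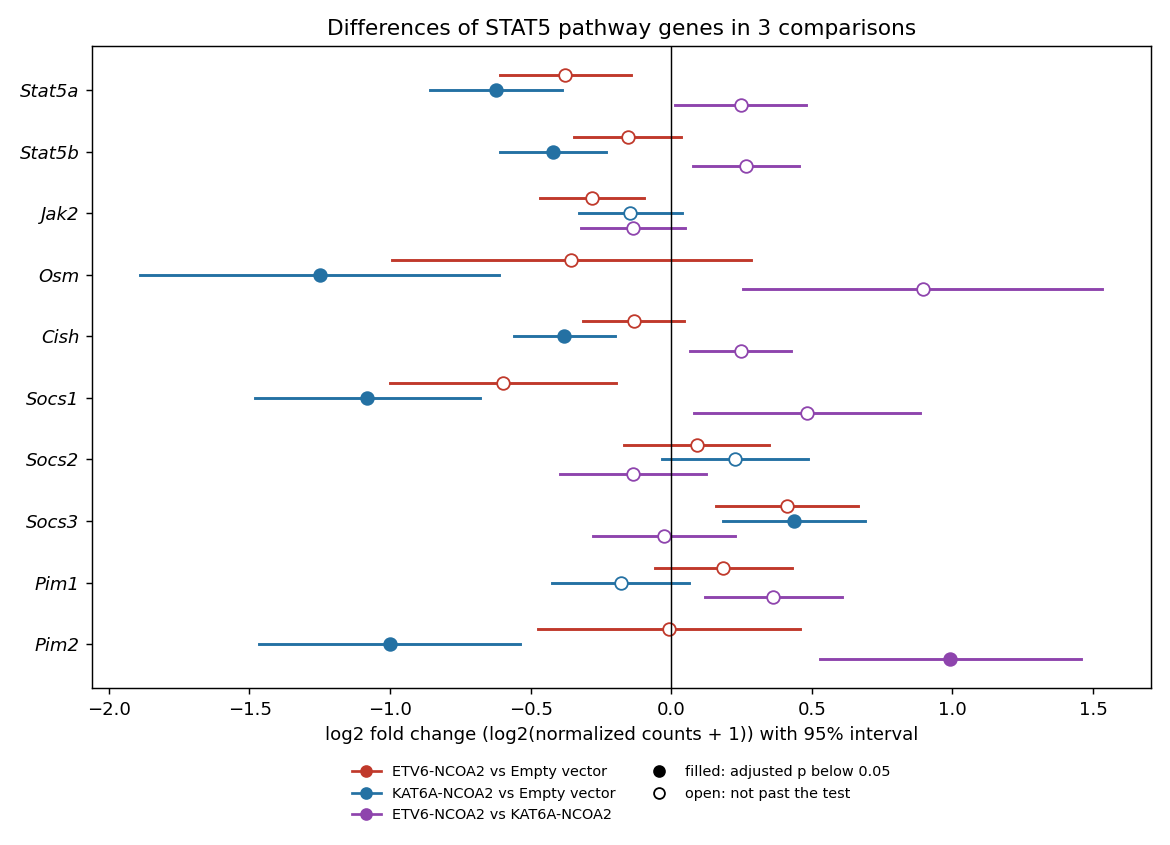
Log2 fold changes of the 10 genes (x axis) with 95% intervals from limma, in 3 comparisons marked by colour. Filled points passed an adjusted p below 0.05: 7 genes for KAT6A-NCOA2 against Empty vector, 0 for ETV6-NCOA2 against Empty vector and Pim2 for ETV6-NCOA2 against KAT6A-NCOA2.

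The comparison of ETV6-NCOA2 with Empty vector asked the same of the other fusion, with the same 3 control libraries. None of the 10 genes passed the limma test, where 2.84% of all tested genes did (1.02% higher and 1.82% lower), and their median log2 fold change was -0.14 beside 0.01 over all genes. At an unadjusted p below 0.05 there were 4 of the 10 genes, beside 20.6% of all tested genes, and these were Socs1, Stat5a and Jak2 with lower means and Socs3 with a higher one. DESeq2 called these same 4, while edgeR and limma-voom called 0. Over all genes DESeq2 called 981, edgeR 506 and limma-voom 441, beside 390 in the main fit. Without Empty vector replicate 2 limma called the same 4, with adjusted p = 0.0185 for Socs1, 0.0076 for Stat5a, 0.0209 for Jak2 and 0.043 for Socs3, and without KAT6A-NCOA2 replicate 1 it called Socs3 (0.0473). Over all genes limma called 1765 without Empty vector replicate 2 and 405 without KAT6A-NCOA2 replicate 1. Libraries of the groups did not overlap for Stat5a and Jak2, lower with ETV6-NCOA2, nor for Socs3, higher. Such separation was seen for 12.5% of all tested genes in the lower direction, for 9.01% in the higher one and for 21.5% in either.

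Stat5a had 606, 553 and 557 normalized counts in ETV6-NCOA2 libraries, all below the lowest Empty vector library at 630. The log2 fold change was -0.38 ± 0.11 SE (adjusted p = 0.082). Jak2 had 2805, 2626 and 2478 normalized counts in ETV6-NCOA2 libraries, below the 2906 of the lowest Empty vector library (log2 fold change -0.28 ± 0.08 SE, adjusted p = 0.0939). Socs3 had 3803, 3703 and 3665 normalized counts in ETV6-NCOA2 libraries, above the 3034 of the highest Empty vector library (log2 fold change 0.41 ± 0.11 SE, adjusted p = 0.0793). These 3 ETV6-NCOA2 values of Socs3 were close to each other, with a coefficient of variation of 1.92%.

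Socs1 had 605, 484 and 386 normalized counts in ETV6-NCOA2 libraries, of which the first lay inside the Empty vector range (log2 fold change -0.60 ± 0.18 SE, adjusted p = 0.1). Pim2 had 328, 230 and 238 normalized counts in ETV6-NCOA2 libraries, spread over the same range as the Empty vector libraries (interval -0.47 to 0.46 on the log2 scale, adjusted p = 0.988). Osm had 1336, 896 and 739 normalized counts in ETV6-NCOA2 libraries, and its interval was wide, from -0.99 to 0.28 (adjusted p = 0.531). For these genes the limits of the intervals are what the libraries allow, and a missed threshold does not show that the groups were alike.

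The remaining 4 genes overlapped the Empty vector libraries. Cish had 1678, 1643 and 1604 normalized counts in ETV6-NCOA2 libraries (adjusted p = 0.384), and Stat5b had 1346, 1152 and 1172 (adjusted p = 0.338). Socs2 had 873, 1098 and 1159 normalized counts (adjusted p = 0.714), and Pim1 had 5491, 4713 and 4174 (adjusted p = 0.374).

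ETV6-NCOA2 was then set against KAT6A-NCOA2 directly. Pim2 was 1.99-fold higher with ETV6-NCOA2 (log2 fold change 0.99 ± 0.21 SE, adjusted p = 0.0303) and was the 1 call among the 10 genes, where 3.09% of all tested genes were called (2.84% higher and 0.247% lower). Its 3 ETV6-NCOA2 libraries lay above its 3 KAT6A-NCOA2 libraries. The call was lost in 5 of the 9 fits that left out a library, without each of the ETV6-NCOA2 replicates 1, 2 and 3 (adjusted p = 0.106, 0.0701 and 0.0627) and without KAT6A-NCOA2 replicates 2 and 3 (0.136 and 0.138). Limma-voom gave an adjusted p of 0.0558.

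In 7 of the 10 genes the 3 ETV6-NCOA2 libraries were all above the 3 KAT6A-NCOA2 libraries, and such separation held for 14.4% of all tested genes, and for 27.2% in either direction. These genes were Cish, Socs1, Pim1, Pim2, Stat5a, Stat5b and Osm. Equally numbered libraries of the 2 fusions deviated together, and with the replicate number as a block limma called Pim2 (adjusted p = 8.15e-04) and Osm (adjusted p = 0.00694). This blocked fit held all 9 libraries, so the block was also applied to the Empty vector libraries, for which such pairing is not proven. Over all genes the blocked fit called 983 in this comparison, beside 425 without the block. Osm was 1.86-fold higher with ETV6-NCOA2 (log2 fold change 0.90 ± 0.29 SE, adjusted p = 0.129 without the block). Its log2 differences between libraries of equal number were 1.01, 0.99 and 0.69 for replicates 1, 2 and 3. Pim1, which had overlapped the vector with either fusion, was 1.29-fold higher with ETV6-NCOA2 (adjusted p = 0.108, and 0.0512 with the block). Without Empty vector replicate 2, which enters the shared estimate of the spread, Pim1 and Osm had adjusted p = 0.0446 and 0.0447, beside 0.0227 for Pim2. That fit called 913 genes in all. Socs3 had nearly equal means in the 2 fusions, with an interval of -0.28 to 0.23 on the log2 scale (adjusted p = 0.931).

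Levels between genes were compared per length of transcript. They were divided by the length of the longest principal transcript in GENCODE, between 1.113 kb for Pim2 and 5.213 kb for Stat5b. Pim1 and Socs3 were the most abundant per kilobase in every group. In KAT6A-NCOA2 libraries Socs3 averaged 1496 ± 224 and Pim1 1372 ± 32.7 normalized counts per kilobase (SD, n = 3), and their ranges overlapped. In ETV6-NCOA2 libraries Pim1 led with 1776 ± 246 per kilobase and Socs3 followed with 1459 ± 27.9, and in Empty vector libraries Pim1 had 1560 ± 184 and Socs3 1102 ± 128, without overlap in either group. Below them in Empty vector libraries came Jak2, Cish and Osm at 638 ± 63.2, 633 ± 54.5 and 570 ± 225 per kilobase, neighbours whose ranges overlapped. Socs2 stood at 438 ± 23.5, inside the range of Osm. The lowest 4 were Stat5b, Socs1, Pim2 and Stat5a, between 261 ± 17.9 and 192 ± 29.2 per kilobase, each overlapping the next. In ETV6-NCOA2 libraries the third to sixth places went to Cish, Jak2, Socs2 and Osm, at 576 ± 13.03, 524 ± 32.5, 469 ± 67.8 and 436 ± 136 per kilobase. Cish lay above Jak2 without overlap there, while Jak2 overlapped Socs2 and Socs2 overlapped Osm. With KAT6A-NCOA2 the lowest 3 were Stat5a, Pim2 and Socs1, at 124 ± 6.42, 121 ± 35.2 and 119 ± 2.96 per kilobase, and each again overlapped the next.

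The spread between replicates was looked at by replicate number. Socs1, Pim1, Pim2 and Osm each had their highest value in replicate 1 in all 3 groups. The share of all tested genes with this order was not counted. Across all tested genes, deviations of the replicate 1 libraries from their group means correlated at 0.30 to 0.39 between groups. Osm had the largest coefficient of variation of the 10 genes with ETV6-NCOA2 (31.2%) and with Empty vector (39.4%), and with KAT6A-NCOA2 it had 23.0% while Pim2 had 29.2%. Summed levels of 9 mast cell and basophil markers, of 6 blood progenitor markers and of 9 neutrophil granule markers were also highest in replicate 1 of every group. Those of the other marker lists were not.

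The marker levels moved with the groups as well. The 9 mast cell and basophil markers summed to 37822, 31421 and 23609 normalized counts in ETV6-NCOA2 libraries, where 5 of 9 fell. They summed to 26181, 11759 and 9498 in KAT6A-NCOA2 libraries, where all 9 fell, and to 63195 to 120616 in Empty vector libraries. The 6 progenitor markers summed to 11002 to 16297 with ETV6-NCOA2, 7036 to 10199 with KAT6A-NCOA2 and 16424 to 23166 with Empty vector. Gata2 was the largest part of the Empty vector sums. It averaged 3940 with ETV6-NCOA2, 1723 with KAT6A-NCOA2 and 8058 with Empty vector. The sum does not tell progenitors from other cells that hold these transcripts. Of the 6 progenitor markers, 2 fell with ETV6-NCOA2 and 3 with KAT6A-NCOA2, 0 rose with either, and the rest did not pass. Kit and Myb fell with either fusion and Gata2 with KAT6A-NCOA2, while Cd34 was among those that did not pass. No mast cell or progenitor marker was at 0 in any library. Osm, Pim2, Socs1 and Stat5a, which had the largest falls of the 10 STAT5 pathway genes, fell in the same KAT6A-NCOA2 libraries as these markers. Of the others, Stat5b and Cish fell less, Socs3 rose, and Jak2, Pim1 and Socs2 did not pass. With ETV6-NCOA2 the mast cell sum lay at 27.6% to 44.2% of the Empty vector mean, and the progenitor sum at 56.3% to 83.3%. Cpa3 and Hdc led the mast cell sum, averaging 18633 and 6231 with ETV6-NCOA2 and 39911 and 21764 with Empty vector. Log2 fold changes of the 9 mast cell markers with ETV6-NCOA2 ran from -3.90 to -0.56. By the same measure ETV6-NCOA2 libraries of Pim2 lay at 86.5% to 124% and those of Stat5a at 73.9% to 81.0%. Those of Osm lay at 57.0% to 103% and those of Socs1 at 51.6% to 81.0%. Averages of Pim2, Stat5a, Osm and Socs1 were 99.8%, 76.5%, 76.4% and 65.8% of the Empty vector mean. In the direct comparison none of the 9 mast cell markers was called, 6 having an unadjusted p below 0.05, and Myb and Gata2 were higher with ETV6-NCOA2, as were 7 of 8 neutrophil granule markers. Over all 13750 tested genes, 2592 had an unadjusted p below 0.05 in that comparison. The Gata2 call was lost in 6 of 9 fits that left out a library, with adjusted p up to 0.15 without KAT6A-NCOA2 replicate 3. The part of these cells in the values of the STAT5 genes was not tested.

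**Figure D3:**
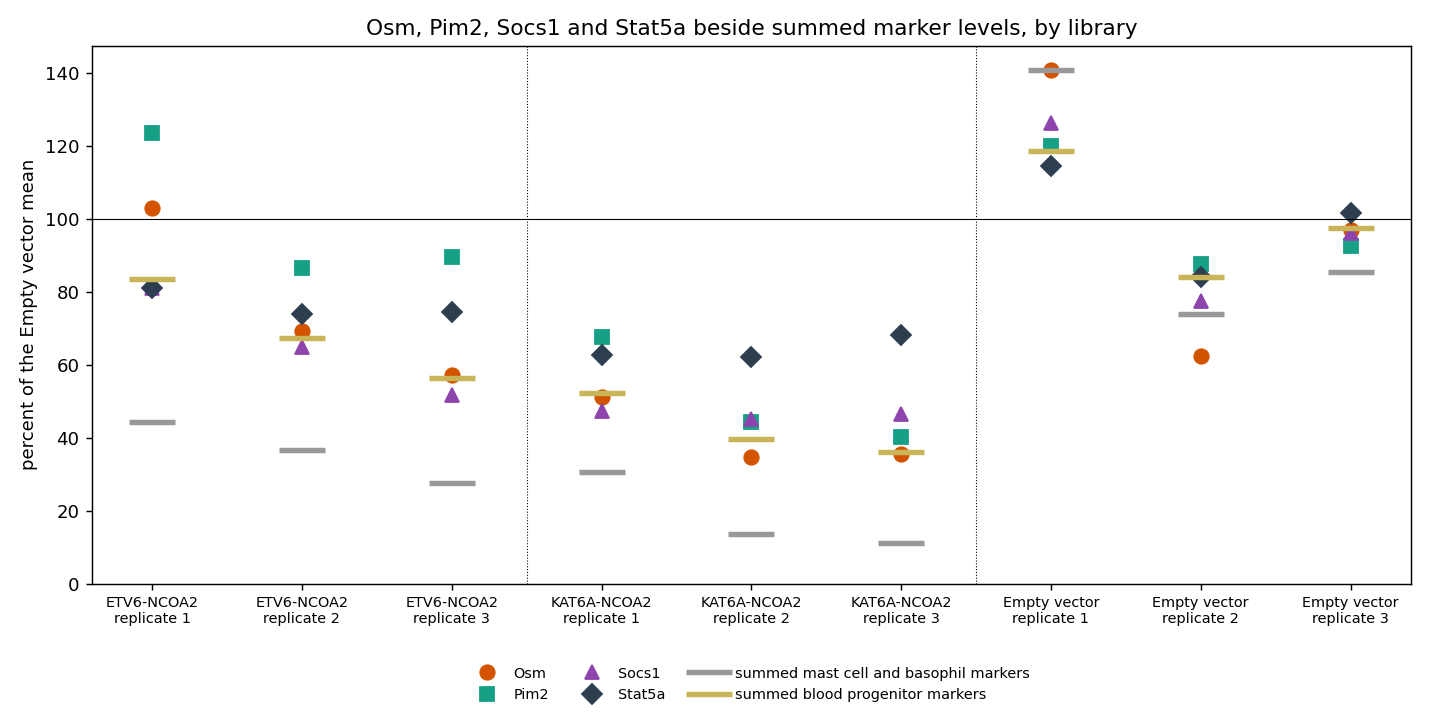
Levels of Osm, Pim2, Socs1 and Stat5a and summed levels of the mast cell and basophil markers and of the blood progenitor markers, as percent of the Empty vector mean (y axis), in each library (x axis). The genes drawn are those of the STAT5 pathway genes with the largest falls with KAT6A-NCOA2. KAT6A-NCOA2 libraries have 34.7% to 51.2% for Osm and 11.1% to 30.6% for the mast cell markers, and ETV6-NCOA2 libraries have 57.0% to 103% for Osm.

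The other cell types were checked in the same way. Neutrophil granule markers summed to 5672 to 10982 normalized counts with ETV6-NCOA2, 986 to 1668 with KAT6A-NCOA2 and 13182 to 19103 with Empty vector. Of 8 tested, all 8 fell with KAT6A-NCOA2. With ETV6-NCOA2 3 fell and 0 rose, while 5 of the 8 had negative and 3 positive log2 fold changes, the latter up to 1.33. At an unadjusted p below 0.05 there were 6 of the 8, beside 20.6% of all tested genes, and the 6 included genes of both directions. Ltf or Camp was at 0 in some libraries of the fusions. Eosinophil markers summed to 361 to 486 with ETV6-NCOA2, 359 to 412 with KAT6A-NCOA2 and 419 to 566 with Empty vector. Siglecf made 344 to 476, 351 to 403 and 240 to 275 of these, so the sums say little of the others. The list gave 3 falls and 1 rise, that of Siglecf, of 4 tested in either fusion. Prg2 averaged 7.98 with ETV6-NCOA2, 8.89 with KAT6A-NCOA2 and 165 with Empty vector (log2 fold changes -4.24 and -4.12). Epx was at 0 in libraries of both fusions, Prg3 in 1 with ETV6-NCOA2 and Il5ra in 1 with KAT6A-NCOA2. Erythroid markers summed to 298 to 532 with ETV6-NCOA2, 348 to 495 with KAT6A-NCOA2 and 743 to 1503 with Empty vector, with 2 and 3 falls of 6 in these fusions. Macrophage markers were high throughout, at 192352 to 215982 with KAT6A-NCOA2, 160272 to 197368 with ETV6-NCOA2 and 155382 to 187703 with Empty vector, and 2 of 8 rose with KAT6A-NCOA2 and 0 with ETV6-NCOA2. At an unadjusted p below 0.05, 2 of them had passed with ETV6-NCOA2. Megakaryocyte markers summed to 35855 to 74892 with ETV6-NCOA2, 46753 to 65262 with KAT6A-NCOA2 and 31613 to 45750 with Empty vector. None of the 5 passed against the vector in either fusion, where 2 had an unadjusted p below 0.05 with KAT6A-NCOA2 and 1 with ETV6-NCOA2. Over all 13750 tested genes, 5303 had an unadjusted p below 0.05 with KAT6A-NCOA2 and 2832 with ETV6-NCOA2. Lymphoid markers summed to 104 to 114 with ETV6-NCOA2, of which Klrb1c made 73.7 to 94.6, and to at most 32.2 in the other libraries, with Cd79a at 0 in 1 Empty vector library. The label gives lineage-negative marrow cells, and beside progenitor transcripts the libraries held those of mature myeloid cells. The part of these cells in the STAT5 gene values was not tested either.

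Of 7 tested receptors upstream of STAT5 or for oncostatin M, Il6st, Il6ra and Csf2rb rose and Kit fell with KAT6A-NCOA2. Il6st, the gp130 chain that IL-6 and oncostatin M receptors share, had 9277, 12170 and 12524 normalized counts in KAT6A-NCOA2 libraries and 4621, 7627 and 5088 in Empty vector libraries, with no overlap (log2 fold change 0.99 ± 0.20 SE, adjusted p = 0.00535). Il6ra, the IL-6 binding chain, rose by 0.74 ± 0.20 SE on the log2 scale (adjusted p = 0.0211). Csf2rb encodes the beta chain common to the receptors of IL-3, IL-5 and GM-CSF, and rose by 0.43 ± 0.12 SE (adjusted p = 0.0284). Csf2rb2, which in mouse encodes a beta chain specific to IL-3, had a log2 fold change of -0.04 ± 0.13 SE with KAT6A-NCOA2 (adjusted p = 0.839). Its levels were 14772, 14638 and 15132 normalized counts with KAT6A-NCOA2 and 19059, 14192 and 13208 with Empty vector, which overlap, and how reads shared by these closely related genes were split is uncertain. Kit, the receptor for SCF, fell by 2.11 ± 0.19 SE with KAT6A-NCOA2 (adjusted p = 1.58e-04) and by 1.33 ± 0.19 SE with ETV6-NCOA2 (adjusted p = 0.00941), where it was the 1 receptor called. Osmr, the receptor chain specific to oncostatin M, had at most 6.31 normalized counts in any library and was not tested. Lifr, a related chain, had 347 to 405 with KAT6A-NCOA2, 357 to 446 with ETV6-NCOA2 and 245 to 340 with Empty vector, and did not pass in either comparison. The Il6ra and Csf2rb calls were each lost without KAT6A-NCOA2 replicates 2 or 3 or Empty vector replicates 1 or 3, with adjusted p up to 0.0885 for Il6ra and 0.109 for Csf2rb, and those of Il6st and Kit held in all 9 such fits.

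Of 5 other STAT genes 2 rose and 1 fell with KAT6A-NCOA2. None passed with ETV6-NCOA2, where 3 had an unadjusted p below 0.05, beside 20.6% of all tested genes. Stat3, the factor activated by gp130, rose by 0.27 ± 0.07 SE and Stat6, that of IL-4, by 0.26 ± 0.08 SE on the log2 scale with KAT6A-NCOA2 (adjusted p = 0.0206 and 0.0333). Stat4 had 124, 114 and 76.0 normalized counts in KAT6A-NCOA2 libraries and 321, 222 and 247 in Empty vector libraries, and fell 2.53-fold (adjusted p = 0.00239). Stat2 was higher with ETV6-NCOA2 than with KAT6A-NCOA2, at 1553, 1075 and 1187 normalized counts with ETV6-NCOA2 and 730, 835 and 857 with KAT6A-NCOA2 (log2 fold change 0.64 ± 0.13 SE, adjusted p = 0.0273). The Stat3 call was lost without KAT6A-NCOA2 replicate 3 or Empty vector replicates 1 or 3, and that of Stat6 also without KAT6A-NCOA2 replicate 2, with adjusted p up to 0.0902 and 0.132. The Stat2 call was lost without any 1 KAT6A-NCOA2 library or ETV6-NCOA2 replicates 1 or 3, with adjusted p up to 0.0916. None of Jak1, Jak3 and Tyk2 passed in any of the 3 comparisons, nor at an unadjusted p below 0.05. Jak1, the most abundant of them by normalized counts, had 5404, 5367 and 5639 with KAT6A-NCOA2, 5068, 4861 and 5296 with ETV6-NCOA2 and 5178, 5270 and 4655 with Empty vector.

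The rest of the SOCS and PIM families, Socs4 to Socs7 and Pim3, gave 0 calls of 5 in each comparison, with 1, 2 and 0 at an unadjusted p below 0.05 for ETV6-NCOA2 against vector, KAT6A-NCOA2 against vector and the direct comparison. Over all 13750 tested genes, 2832, 5303 and 2592 had such a p in these 3 comparisons. Socs6, the most abundant of the 5, had log2 fold changes of 0.15 with KAT6A-NCOA2 and 0.01 with ETV6-NCOA2. Of 11 other inhibitors of JAK-STAT signalling, 4 rose with KAT6A-NCOA2 and none fell, with a median of 0.10. The ubiquitin ligase genes Cbl and Cblb rose by 0.42 ± 0.08 SE and 0.38 ± 0.12 SE on the log2 scale (adjusted p = 0.00531 and 0.0429). Ptpn11, which encodes the phosphatase SHP2, rose by 0.29 ± 0.09 SE (adjusted p = 0.0338), and Ptpn1 was the fourth. Cbl was called in all 9 fits that left out a library. Ptpn11 was lost without any 1 KAT6A-NCOA2 or Empty vector library (adjusted p up to 0.105). Cblb and Ptpn1 were both lost without KAT6A-NCOA2 replicates 2 or 3 or Empty vector replicate 1, and Cblb also without Empty vector replicate 3 or ETV6-NCOA2 replicate 2 (adjusted p up to 0.161 for Cblb and 0.0755 for Ptpn1). With ETV6-NCOA2 none of the 11 passed, while 2 had an unadjusted p below 0.05.

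**Figure D4:**
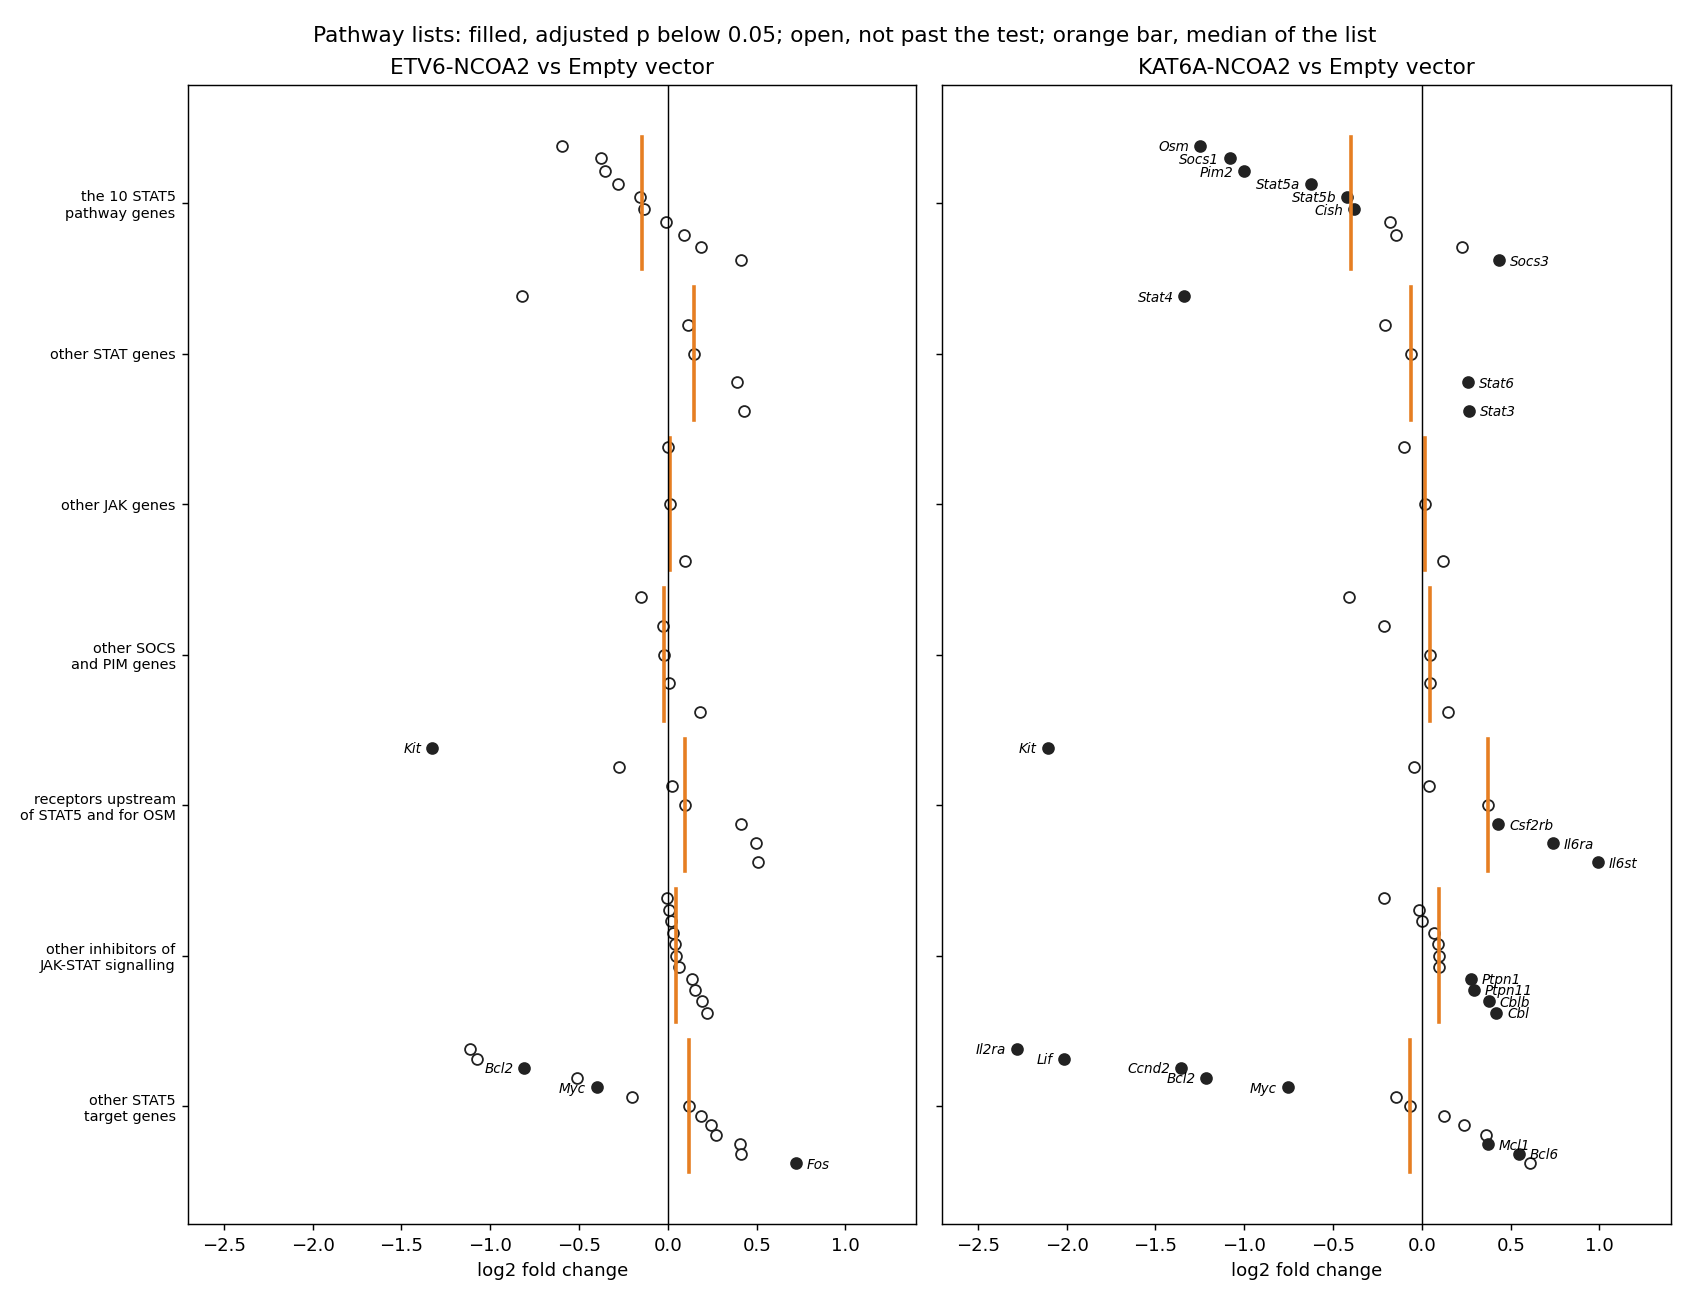
Log2 fold changes (x axis) of each gene of the pathway lists (y axis) for ETV6-NCOA2 and for KAT6A-NCOA2, each against the same Empty vector libraries. Filled points passed an adjusted p below 0.05 and are named, and the orange bar is the median of a list, which is -0.40 for the 10 STAT5 pathway genes with KAT6A-NCOA2 and -0.14 with ETV6-NCOA2.

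Known STAT5 targets outside the feedback group split in direction. Of 13 such genes, 5 fell and 2 rose with KAT6A-NCOA2, with a median of -0.07. The 2 that rose were Mcl1 and Bcl6, and Bcl6 is known to be turned down by STAT5. The largest falls were in Il2ra, the alpha chain of the IL-2 receptor, Lif, a cytokine related to oncostatin M, and Ccnd2, the cyclin D2 gene. Il2ra had 978, 641 and 536 normalized counts in KAT6A-NCOA2 libraries and 5475, 2212 and 3192 in Empty vector libraries (log2 fold change -2.28 ± 0.34 SE, adjusted p = 0.0015). Lif had 674, 296 and 250 with KAT6A-NCOA2 and 2653, 877 and 1432 with Empty vector (log2 fold change -2.02 ± 0.49 SE, adjusted p = 0.0143). Neither gene's libraries overlapped between these groups, and both had their highest value in replicate 1, as Osm did. Ccnd2 fell with KAT6A-NCOA2 by 1.35 ± 0.18 SE on the log2 scale (adjusted p = 7.78e-04) and was higher with ETV6-NCOA2 than with KAT6A-NCOA2 (log2 fold change 0.85 ± 0.18 SE, adjusted p = 0.0297). Of the anti-apoptotic genes, Bcl2 fell with KAT6A-NCOA2 by 1.21 ± 0.10 SE (adjusted p = 1.14e-04) and Mcl1 rose by 0.37 ± 0.11 SE (adjusted p = 0.0304). The Lif and Mcl1 calls were lost without KAT6A-NCOA2 replicates 2 or 3 or Empty vector replicate 1, and that of Mcl1 also without Empty vector replicate 3, with adjusted p up to 0.064 and 0.124. The Ccnd2 call between the fusions was lost without any 1 ETV6-NCOA2 library or KAT6A-NCOA2 replicates 2 or 3 (adjusted p up to 0.131). With the replicate block, Il2ra (adjusted p = 0.00207), Lif (0.0218), Bcl2 (0.0218), Myc (0.0427) and Kit (0.00324) were also called higher with ETV6-NCOA2 than with KAT6A-NCOA2, and Il6st lower (0.0358). The blocked fit called 983 genes in all, beside 425 without the block.

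With ETV6-NCOA2 3 of the 13 targets passed. Bcl2 had 535, 495 and 434 normalized counts in ETV6-NCOA2 libraries and 961, 753 and 853 in Empty vector libraries, and fell by 0.81 ± 0.10 SE on the log2 scale (adjusted p = 0.00749). Myc, a driver of growth, fell by 0.40 ± 0.09 SE (adjusted p = 0.0453), and Fos, an AP-1 subunit, rose by 0.72 ± 0.14 SE (adjusted p = 0.03). The Myc call was lost in 7 of 9 fits that left out a library, all but those without KAT6A-NCOA2 replicate 1 and Empty vector replicate 2 (adjusted p up to 0.172). That of Fos was lost without ETV6-NCOA2 replicates 2 or 3, KAT6A-NCOA2 replicate 2 or Empty vector replicate 1 (adjusted p up to 0.107), and that of Bcl2 held in all 9. Bcl6, a repressor that STAT5 is known to turn down, rose by 0.55 ± 0.11 SE with KAT6A-NCOA2 (adjusted p = 0.00677) and had a log2 fold change of 0.41 with ETV6-NCOA2 (adjusted p = 0.0786). TTCNNNGAA was found in promoter windows of 1 of 9 of these target genes that had a window, which was Bcl6.

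Genes whose profile over the 9 libraries was nearest to that of a pathway gene were sought among 12325 genes, by the root mean square distance between mean-centred log2 values. For Osm the nearest was F2r, the thrombin receptor gene, at a distance of 0.147 on the log2 scale beside a median of 0.671 over all genes. F2r averaged 1521 ± 472 normalized counts with KAT6A-NCOA2, 2892 ± 406 with ETV6-NCOA2 and 4035 ± 1528 with Empty vector (SD, n = 3). Kif18b, a mitotic kinesin, followed at 0.169 and Adamts3, a secreted protease, at 0.174. For Cish, Tbc1d9b at 0.0540 and Cnot3 at 0.0590 were among the nearest, beside a median of 0.253. For Socs2 the nearest were Mlxip at 0.0398, Smg1 at 0.0491 and Tnrc6a at 0.0620, and for Pim1 Mtmr12 at 0.0443, Slc25a42 at 0.0787 and Tap2 at 0.0801. Genes that vary little lie near to many others by this measure, so these distances describe likeness over these libraries only.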

How the data were processed

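The authors deposited normalized counts per gene, a signal equal to reads divided by 1 factor per library, rounded to 2 decimals. Per the submitters' processing notes the tools included STAR 2.4.2a, HTSeq, cutadapt and DESeq2, with the genome GRCm38, while roles, strand setting and annotation are not given in the sources used here. All values were whole multiples of 1 number per library within 0.01, which gave back 17.1 to 20.4 M reads per library. Intervals on reads cover counting error only. Genes with at least 10 normalized counts in at least 3 libraries (13750, with 3516 left out) were tested with limma 3.58.1 (R 4.3.3) with an intensity trend on log2(value + 1), all 9 libraries in 1 fit, with adjustment over all genes of a comparison. The fit was also run on simulated data with independent libraries and planted changes larger than most of those of the 10 genes. That run does not cover replicates that vary together or smaller changes. Fold changes are differences of group means on that log2 scale, which understates changes of low genes.

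The genes and the lists (6 further pathway lists and 8 marker lists) were chosen with earlier results of these data known. Named were all 10 genes, per pathway list up to 3 called genes by size in each comparison (with none called, the most abundant), of marker lists up to 2 of the highest mean and those at 0, and the 3 nearest profiles of Cish, Socs2, Pim1 and Osm. Csf2rb, Csf2rb2, Ptpn1, Myb, Mcl1, Bcl6, Lifr and Osmr were named after their values were seen. Coordinates and lengths are from GENCODE M21 (GRCm38). Some marker genes of the lists were not analysed here, and 1 gene that the naming rule gave is not reported here. Deviations from group means of equally numbered libraries correlated across genes at 0.30, 0.20 and 0.29 between ETV6-NCOA2 and KAT6A-NCOA2, so the blocked fit is given for that comparison. It used all 9 libraries, those of the Empty vector included. Alternatives were DESeq2 1.42.0, edgeR 4.0.16 and limma-voom on the recovered reads, TMM factors, other pseudocounts and filters, 6-library fits, the block and leaving out each library.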

Additional observations from a re-analysis of the deposited data

How the results depend on the processing

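Over the 10 genes and 3 comparisons, 538 of 570 values under the alternatives kept direction and call, and for the other named genes 1472 of 1596 did. Values that were not called and stayed so count as kept, so these shares do not measure how firm the calls were. Of the remaining values of the 10 genes, 18 gained a call, 10 lost one and 4 turned direction. With KAT6A-NCOA2 against Empty vector 7 of the 10 genes were called, and 5 to 7 when 1 library was left out, where Cish, Pim2, Socs1, Stat5a and Stat5b were called each time. With ETV6-NCOA2 against Empty vector the 0 calls became 4 with DESeq2 and 4 with the replicate block, and 0 to 4 when 1 library was left out, the 4 without Empty vector replicate 2. In the direct comparison the 1 call became 0 with limma-voom, 2 with DESeq2, 2 with the 6 libraries alone and 2 with the replicate block, and 0 to 3 when 1 library was left out.

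Over all genes, 390 were called with ETV6-NCOA2 against Empty vector, 981 with DESeq2, 174 with 6 libraries, 1255 with the replicate block and 61 to 1765 when 1 library was left out, the most without Empty vector replicate 2. With KAT6A-NCOA2 against Empty vector 3488 became 1779 to 4320 when 1 library was left out, with 1779 without Empty vector replicate 1, 2298 without Empty vector replicate 3, 1866 without KAT6A-NCOA2 replicate 2 and 1887 without KAT6A-NCOA2 replicate 3. In the direct comparison 425 became 762 with DESeq2, 823 with 6 libraries, 983 with the replicate block and 163 to 913 when 1 library was left out, the most without Empty vector replicate 2. The cause of these moves was not tested, apart from fewer libraries where some were left out. For the vector comparisons the numbers share no proven pairing: equally numbered libraries correlated at 0.31, 0.05 and -0.08 with ETV6-NCOA2 and at 0.39, 0.17 and -0.03 with KAT6A-NCOA2.

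Directions turned only for values that no fit called. Log2 fold changes with ETV6-NCOA2 against Empty vector ran from -0.17 to 0.13 for Pim2, from -0.0426 to 0.0469 for Jak1, from -0.0655 to 0.11 for Socs6, from -0.0385 to 0.16 for Cblb, from -0.061 to 0.10 for Csf2rb and from -0.0355 to 0.24 for Cd34 when 1 library was left out. Socs6 was at -0.0035 with edgeR. With KAT6A-NCOA2 against Empty vector Klrb1c ran from -0.22 to 0.99 and Csf2rb2 from -0.15 to 0.12, and Socs3 in the direct comparison from -0.15 to 0.072 when 1 library was left out. Depth limits Pim2 most among the 10 genes.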
